A study of Mus musculus with 6 samples.

Results

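Transcription factor genes that act in the inner cells of the mouse blastocyst were followed in RNA of female and male embryos. The 10 genes are Nanog, Sox2, Klf2, Klf4, Klf5, Esrrb, Tfcp2l1, Tbx3, Zfp42 and Sall4. The genes were taken by name from the probes that carry a single gene symbol, which gave 10 of 8973 named genes and 15 of 21446 features. They were chosen with the sex ratios of these arrays already known, so those ratios are described here and support nothing by a test. All 10 lie on autosomes. Tfcp2l1 was measured by 4 probes, Esrrb and Sall4 by 2 each, and the other 7 genes by 1 each.

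The embryos were E3.5 blastocysts of B6C3F1 females, aged 8 weeks, and males named XGFPY in the labels. Ovulation was induced with pregnant mare serum gonadotropin and human chorionic gonadotropin, at 5 IU each and 48 h apart. Embryos of 4 cells were taken 55 h after the latter and grown in kSOM medium for a further 38 h with no treatment, and each RNA came from a pool of over 200 whole embryos of one sex with yeast tRNA as carrier. Female and male RNA of a preparation shared each 2-colour array, once with female RNA in Cy5 and once with female RNA in Cy3, which gave 3 preparations, 6 arrays and 3 arrays in each orientation. The labels do not describe how the embryos were sexed. All values below are log2 ratios of the RNA labelled female over the RNA labelled male, and a preparation's value is the mean of its 2 arrays. Their size and direction rest on reading the deposited numbers as log10 of Cy5 over Cy3, they are differences between the sexes, and they say nothing of how strongly a gene was expressed. Because only ratios were analysed, the labelled tissue could not be checked by the level of its markers.

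Blastocysts hold an outer trophectoderm, which forms the placenta, and an inner cell mass, which parts into the epiblast and the primitive endoderm. Nanog and Sox2, with Oct4 (Pou5f1, not analysed here), form the core of the network that keeps inner cells and embryonic stem cells pluripotent. Klf2, Klf4, Klf5, Esrrb, Tfcp2l1 and Tbx3 sustain that network in the naive state, the state of the preimplantation epiblast, and several of them act downstream of LIF signalling. Zfp42, also called Rex1, is a widely used marker of naive cells, and Sall4 is a zinc finger partner of the core factors.

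Promoter sequences are shown for Nanog, Sox2 and Klf4, whose sex ratio kept 1 sign on all arrays relative to Xist, and for Zfp42, whose ratio lay near 0. Each is the 250 bases before a RefSeq gene start in GRCm38.p6, with matches to the searched motifs in capitals. Nanog is chr6:122707315-122707564 (plus strand), Sox2 is chr3:34649745-34649994 (plus strand), Klf4 is chr4:55532476-55532725 (minus strand) and Zfp42 is chr8:43307010-43307259 (minus strand).
Nanog: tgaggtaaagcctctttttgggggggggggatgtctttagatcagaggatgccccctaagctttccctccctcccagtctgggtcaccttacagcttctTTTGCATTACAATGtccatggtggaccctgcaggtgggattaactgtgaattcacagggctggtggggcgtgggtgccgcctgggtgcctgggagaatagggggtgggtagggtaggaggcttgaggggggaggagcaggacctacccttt
Sox2: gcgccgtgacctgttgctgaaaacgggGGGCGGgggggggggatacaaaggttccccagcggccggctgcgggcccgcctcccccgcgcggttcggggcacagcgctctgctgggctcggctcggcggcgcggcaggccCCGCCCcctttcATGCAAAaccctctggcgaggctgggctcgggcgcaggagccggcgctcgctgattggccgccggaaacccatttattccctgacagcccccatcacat
Klf4: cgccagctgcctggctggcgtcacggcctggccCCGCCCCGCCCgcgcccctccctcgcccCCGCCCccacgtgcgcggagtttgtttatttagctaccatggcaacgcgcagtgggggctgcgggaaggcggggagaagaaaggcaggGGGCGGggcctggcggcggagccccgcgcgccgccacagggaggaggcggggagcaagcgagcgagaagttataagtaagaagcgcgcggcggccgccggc
Zfp42: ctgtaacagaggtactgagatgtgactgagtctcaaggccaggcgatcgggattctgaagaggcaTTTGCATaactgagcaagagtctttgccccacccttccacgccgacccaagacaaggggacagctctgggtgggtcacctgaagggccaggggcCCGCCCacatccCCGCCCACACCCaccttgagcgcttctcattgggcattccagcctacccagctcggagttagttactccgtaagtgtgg

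The Nanog window holds TTTGCATTACAATG, which joins an octamer core (TTTGCAT) and a Sox core (ACAATG) with 1 base between, the composite element known to bind Oct4 and Sox2, from 151 to 138 bases before the start. That composite, searched on both strands as all motifs here, was found in 2 of 32851 windows of this length (0.00609%), and both are overlapping windows of Nanog itself. The octamer core alone, which overlaps the composite, was found in 4.12% of all windows, and among the 7 genes with a window in those of Nanog, Sox2 and Zfp42. The Sox core alone was found in 10.7% of all windows and, among these genes, in those of Nanog. The Esrrb site TCAAGGTCA was found in 0.387% of all windows and in none of these genes. The CACCC box GGGTGTGG was found in 3.2% of all windows and, among the same genes, in that of Zfp42. The GC box GGGCGG was found in 32.7% of all windows and in those of Sox2, Klf4, Klf2 and Zfp42. A match is a run of letters and was not tested as a binding site.

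Before any member is read, the sex labels of 1 preparation need a caution. For Xist, whose transcript is made from and coats an inactive X, the ratio was 2.25 in preparation 1, 2.09 in preparation 2 and -1.55 in preparation 3. For Eif2s3y, which lies on the Y chromosome and encodes a translation factor, it was -1.75, -1.76 and 1.93. Read as Cy5 over Cy3, both arrays of preparation 3 therefore go against their labels on both genes. The Y-linked Kdm5d, at 0.026, -0.13 and 0.069, had arrays of both signs in every preparation and did not separate the sexes. Values are given first as labelled and then with the sign of preparation 3 turned, which makes its Xist ratio positive by construction, and means without that preparation follow the group's values. With labels kept, limma called 0 of 18606 rows for sex (0%) at an adjusted p under 0.05, while 484 had an unadjusted p under 0.05. With preparation 3 turned it called 0 rows again (0%), with 1356 at an unadjusted p under 0.05. Neither fit called Xist or Eif2s3y, whose turned means were 1.97 ± 0.37 and -1.81 ± 0.10 (SD, n = 3). A gene left uncalled by these fits is therefore not shown to lack a sex difference.

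The core factors Nanog and Sox2 were higher in the RNA with more Xist in every preparation. Nanog, a homeobox factor that holds inner cells in the epiblast fate, stood at 0.54 and 0.21 on the arrays of preparation 1 (female in Cy5, then in Cy3), then at 0.52 and 0.29 on those of preparation 2, and at -0.32 and -0.45 on those of preparation 3. Both arrays of each preparation had the same sign, and preparation 3 lay apart from the other two on every array. As labelled the mean was 0.13 ± 0.45 (SD, n = 3), and with preparation 3 turned it was 0.39 ± 0.018, a 1.31-fold difference.

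Sox2, the HMG-box partner of Oct4, stood with the dyes in the same order at 0.26 and 0.10 for preparation 1, at 0.42 and 0.16 for preparation 2, and at -0.44 and -0.31 for preparation 3. Its arrays again kept 1 sign within each preparation. The labelled mean was 0.033 ± 0.36 (SD, n = 3) and the turned mean 0.28 ± 0.10, a 1.22-fold difference. The noncoding gene Sox2ot, which contains Sox2 in its locus, was measured by a probe of its own and did not share this pattern, at -0.34, -0.0051 and -0.13 in the 3 preparations. Its arrays disagreed in sign within every preparation.

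Among the Krüppel-like factors, zinc finger proteins that support self-renewal, Klf4 had the largest ratio. On its arrays it stood at 0.38 and 0.18 in preparation 1, 0.26 and 0.28 in preparation 2, and -0.17 and -0.24 in preparation 3. The turned mean was 0.25 ± 0.039 (SD, n = 3), a 1.19-fold difference, against a labelled mean of 0.11 ± 0.28.

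Klf5 stood at 0.13, 0.17 and -0.23 in the 3 preparations, and Klf2 at 0.11, 0.12 and -0.10. The preparation means of both genes followed Xist in sign, but the array of preparation 1 with female RNA in Cy5 did not, at -0.035 for Klf5 and -0.17 for Klf2. Turned means were 0.18 ± 0.048 for Klf5 and 0.11 ± 0.013 for Klf2 (SD, n = 3). Turned means of the 3 factors had the same sign, and those of Klf4, Klf5 and Klf2 were apart by more than the SDs of each neighbouring pair. Their single turned arrays overlapped, from 0.17 to 0.38 for Klf4, -0.035 to 0.33 for Klf5 and -0.17 to 0.39 for Klf2.

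Esrrb, an orphan nuclear receptor and a target of WNT and GSK3 signalling, gave contradictory readings from its 2 probes. The first (accessions BM195454 and CA530962) stood at 0.12, 0.18 and -0.24 in the 3 preparations, with 1 sign on both arrays of each, and its turned mean was 0.18 ± 0.061 (SD, n = 3). The second (NM_011934) stood at -0.19, -0.14 and 0.12, with a turned mean of -0.15 ± 0.036. On single arrays this second probe ranged from -1.61 to 1.23, and its sign followed the dye and not the preparation. The mean of both probes, 0.014 ± 0.048 turned and -0.026 ± 0.04 as labelled, therefore joins values that disagree.

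Tbx3, a T-box factor, had the other strong dependence on dye. Its arrays with female RNA in Cy5 stood at -0.41, -0.0035 and -0.21 and those with female RNA in Cy3 at 0.64, 0.25 and 0.15. The 2 orientations did not overlap. Averaging them gave 0.12, 0.12 and -0.028, with a turned mean of 0.09 ± 0.054 (SD, n = 3).

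Tfcp2l1, a grainyhead-like factor of the LIF-responsive network, stood at -0.012, 0.15 and -0.046, so that its 3 preparations did not all follow Xist. Of its 4 probes, that of accessions BG088774 and BG076249 had preparation values of 0.13, 0.23 and -0.22 and a turned mean of 0.19 ± 0.054 (SD, n = 3). The other 3 probes had turned means of 0.02 ± 0.12, -0.0091 ± 0.11 and 0.04 ± 0.076, each within its SD of 0.

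Zfp42 and Sall4, the marker and the partner of the core, showed little difference in size. Zfp42 stood at -0.0048, -0.027 and 0.032 in the 3 preparations, and its turned mean was -0.021 ± 0.015 (SD, n = 3). Its arrays of preparations 1 and 2 lay on both sides of 0, between -0.19 and 0.14. Sall4 stood at 0.049, 0.10 and -0.012, with a turned mean of 0.055 ± 0.046. Its probes ran in opposite directions with dye, and 1 of them had a turned mean of 0.10 ± 0.073, the other of 0.0085 ± 0.056.

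**Figure D1:**
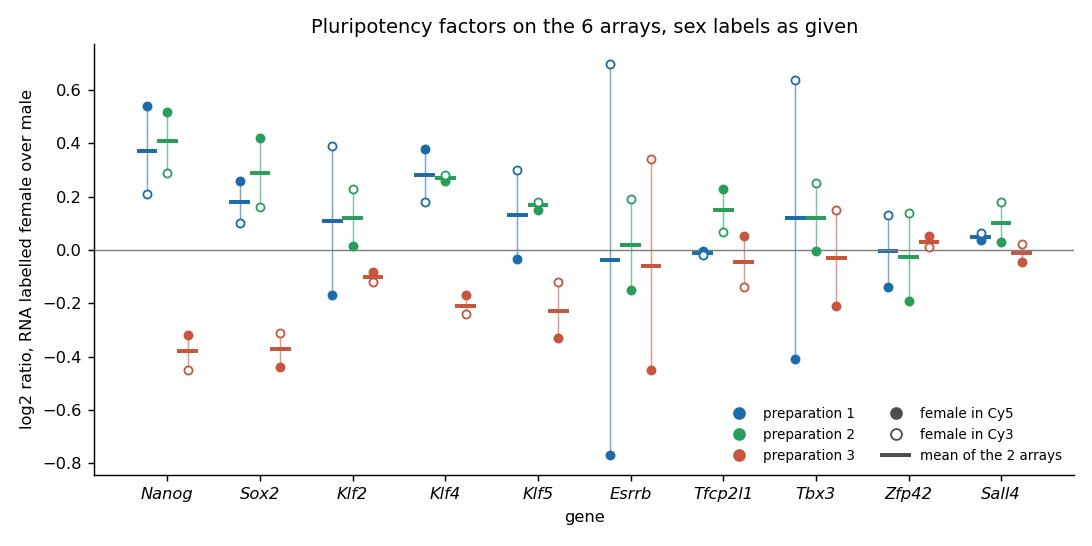
Log2 ratio of the RNA labelled female over the RNA labelled male (vertical axis) for each gene on the 6 arrays, with filled points for female RNA in Cy5, open points for female RNA in Cy3 and bars for the mean of a preparation's 2 arrays. Nanog, Sox2 and Klf4 lie above 0 on all 4 arrays of preparations 1 and 2 and below 0 on both arrays of preparation 3, while the orientations of Esrrb and Tbx3 lie apart.

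As a group, 7 of the 10 genes were above 0 in preparation 1, where 51% of all rows were, 9 in preparation 2 (49.3% of rows) and 1 in preparation 3 (48% of rows). Medians over the 10 genes were 0.11, 0.14 and -0.079, beside medians of 0.0037, 0 and -0.0041 over all rows. Nanog, Sox2 and Klf4 were higher in the RNA with more Xist on all 6 arrays, as were 2.29% of all rows. By preparation means, 7 genes did so in all 3 preparations (16.8% of rows) and Zfp42 did the reverse. As labelled, 0 of the 10 were higher in the RNA labelled female on all 6 arrays (0.446% of rows). The genes were chosen from these ratios, so nothing is read from the counts.

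Over the 10 genes, the median of the labelled means was 0.039 and that of the turned means 0.10, with 9 of 10 above 0 in each reading, where 53.3% and 52.1% of rows were. Without preparation 3 the median was 0.12, with 8 of 10 above 0. The share of all rows is not given for that reading, and nothing is read from the count. The means of preparations 1 and 2 alone were 0.39 for Nanog, 0.24 for Sox2, 0.27 for Klf4, 0.15 for Klf5 and 0.12 for Klf2. They were 0.12 for Tbx3, 0.069 for Tfcp2l1, 0.076 for Sall4, -0.009 for Esrrb and -0.016 for Zfp42, so that the sign of Esrrb differed from that of its turned mean. In order of their turned means the genes ran from Nanog, Sox2 and Klf4 through Klf5, Klf2, Tbx3, Tfcp2l1, Sall4 and Esrrb to Zfp42. Sox2 and Klf4 differed by less than the SD of Sox2, and the neighbours from Tbx3 to Esrrb differed by less than their SDs. Nanog stood above Sox2 by slightly more than the SD of Sox2. Among 8628 autosomal genes ranked by turned mean, Nanog was at 66, Sox2 at 175, Klf4 at 257 and Klf5 at 572, while Zfp42 was at 5281. As labelled, the same ranking put Nanog at 585 and Sox2 at 2829.

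When all 6 arrays were fitted with a replicate block for preparation and a term for dye, limma called 39 of 18606 rows (0.21%) with preparation 3 turned, and Nanog was 1 of them (limma adjusted p = 0.0393). It called 0 of the other 9 genes. The correlation between arrays of a preparation was estimated at -0.15 in this turned fit. The block therefore did not discount the arrays of a preparation, although they hold the same extracts. The same fit with labels kept called 0 rows (0%), with 511 at an unadjusted p under 0.05. Over the alternatives with preparation 3 turned, the limma adjusted p of Nanog ranged up to 0.935, in the fit without replicate 1. No row of that fit had a smaller adjusted p. In the fit of 3 preparation means the limma adjusted p of Nanog was 0.536. The call in the 6-array fit was made on the ratios that led to the choice of Nanog and adds no independent support.

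The dye effect, the mean of Cy5 over Cy3 without regard to sex, does not enter the sex ratio once both orientations are averaged, and it does not depend on the sex labels. It was larger in size than the turned sex ratio for 5 of the 10 genes. For Klf2 (-0.12 against 0.11) and Tfcp2l1 (0.062 against 0.061) this was by little. The share of all rows for which this held is not given here, so nothing is read from the count. Esrrb had the widest dye effect, at -0.73, -0.17 and -0.40 in the 3 preparations. Its mean was -0.43 ± 0.28 (SD, n = 3, limma adjusted p = 0.175). Tbx3 followed at -0.28 ± 0.22 (limma adjusted p = 0.219). For Nanog it was 0.11 ± 0.052, for Sox2 0.047 ± 0.10 and for Klf4 0.042 ± 0.054.

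The test of dye called 0 of 18606 rows (0%) with limma over 3 preparations, where 4952 had an unadjusted p under 0.05, 1 of them a member, Esrrb. With each array centred on its median it called 446 rows (2.4%), 0 of them members. The dye effect kept 1 sign in all 3 preparations for 6 of the 10 genes, against 56.4% of all rows. At the level of probes, the second probe of Esrrb had a dye effect of -0.90 ± 0.48 (SD, n = 3), against 0.035 ± 0.089 for the first. The 3 probes with the largest turned sex ratios, those of Nanog, Sox2 and Klf4, had dye effects of at most 0.11.

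**Figure D2:**
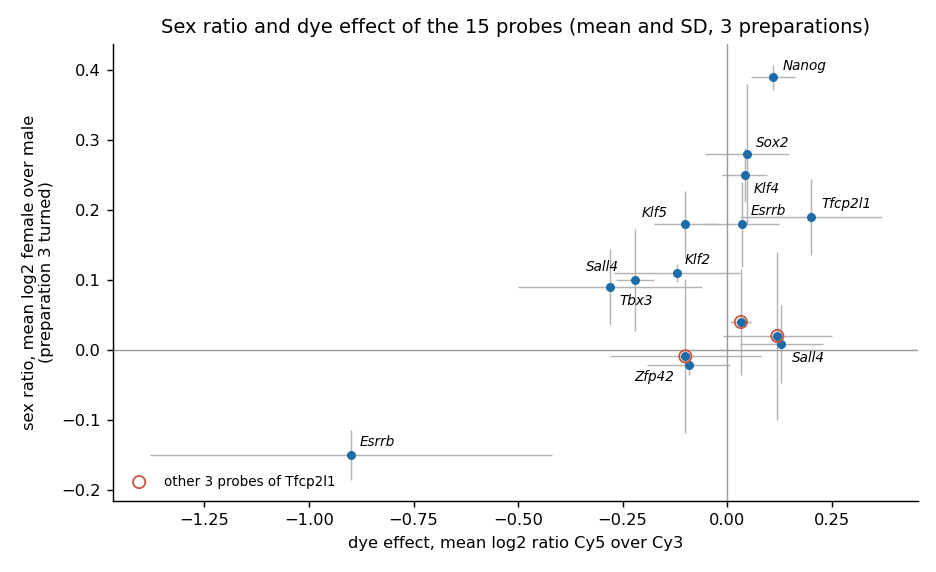
Turned sex ratio (vertical axis, mean log2 female over male with the sign of preparation 3 turned) against dye effect (horizontal axis, mean log2 Cy5 over Cy3) for the 15 probes, with bars for the SD over 3 preparations. Nanog lies at the top at 0.39, and the second probe of Esrrb lies far to the left at -0.90.

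By the root mean square difference over the 6 labelled arrays, the 5 named genes nearest to Nanog were Uxt (0.084), Gsta4 (0.10), Ccnd3 (0.10), Syce2 (0.10) and Nono (0.11). Uxt and Nono are X-linked, Gsta4 encodes a glutathione transferase, Ccnd3 a D-type cyclin and Syce2 a protein of the synaptonemal complex. Their turned means were 0.36 ± 0.04 for Uxt, 0.32 ± 0.075 for Gsta4, 0.42 ± 0.10 for Ccnd3, 0.31 ± 0.034 for Syce2 and 0.34 ± 0.073 for Nono (SD, n = 3). Of the members, Sox2 and Klf4 were nearest to Nanog, each with a difference of 0.16, and Esrrb was farthest at 0.71. These distances compare probes on the same arrays and so share the labelled RNA pools. The 5 nearest genes were picked on the arrays that give their turned means, so those means lie near that of Nanog by construction.

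Other genes of the pluripotency network had a smaller median ratio of the same sign. Of 36 genes listed, 26 were measured, and 21 of these had a turned mean above 0, against 52.5% of all named genes, with a median of 0.065. As labelled 15 of 26 were above 0, with a median of 0.026. Tcl1, a coactivator of AKT kinases, stood at 0.34, 0.28 and -0.20 in the 3 preparations, with a turned mean of 0.27 ± 0.067 (SD, n = 3). Dppa3, a maternal factor that protects imprints, had a turned mean of 0.21 ± 0.023, and Lefty1, an inhibitor of Nodal signalling, one of 0.22 ± 0.21. None of the 26 was called by limma in the 3-preparation fits or in the 6-array fit with block. Tcl1, Dppa2 and Dppa4, the last 2 named after their values were seen, were the ones higher in the RNA with more Xist on all 6 arrays. Pecam1, a cell adhesion gene, and Mybl2, a regulator of the cell cycle, also named after their values were seen, were lower on all 6, with turned means of -0.14 ± 0.10 and -0.11 ± 0.091.

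Signalling genes that feed the network are given by pathway. LIF and STAT3 genes had a turned median of -0.038 over 7 measured genes, with 3 above 0. Pim3, a kinase that is a target of STAT3, stood at -0.32, -0.11 and 0.43 in the 3 preparations (turned mean -0.29 ± 0.16, SD, n = 3), and Stat3 itself at -0.082 ± 0.04 turned. The 9 BMP and Id genes had a turned median of 0.065, with 3 above 0 and 2 below 0 in all 3 turned preparations. Among these were Smad1, a BMP signal transducer, at -0.37 ± 0.12, Id3, a target of that pathway, at 0.19 ± 0.16 and Smad5, another transducer, at -0.11 ± 0.14, all turned.

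FGF and MAPK genes (7 measured) had a turned median of -0.0015. Turned, 3 of them were above 0 in all 3 preparations and 1 was below. Map2k2, a MAPK kinase, stood at 0.21 ± 0.053, Spry4, an inhibitor induced by this pathway, at 0.10 ± 0.066 and the phosphatase gene Dusp6, another of its targets, at -0.084 ± 0.073 (SD, n = 3), all turned. WNT and GSK3 genes (6 measured) had a turned median of 0.032, and none of them kept 1 sign in the 3 preparations once preparation 3 was turned, while Gsk3b, Apc and Tcf7l1 did so as labelled. X-linked genes linked to the embryonic stem cell state (6 measured) had a turned median of 0.018. The MAPK phosphatase gene Dusp9 stood at 0.02 ± 0.013 and Klhl13 at -0.047 ± 0.056, both turned. limma called none of these signalling genes in the same fits.

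Family relatives of the 10 factors, other Klf, Sox, Sall, Tbx, Esrr and grainyhead-like genes and the relatives of Zfp42, had a turned median of 0.0089 over 32 measured genes, with 19 above 0. Tbx15 stood at 0.27 ± 0.11, Tbx20 at 0.23 ± 0.24 and Sox13 at -0.20 ± 0.071 (SD, n = 3), all turned. The difference between the lists was not tested.

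**Figure D3:**
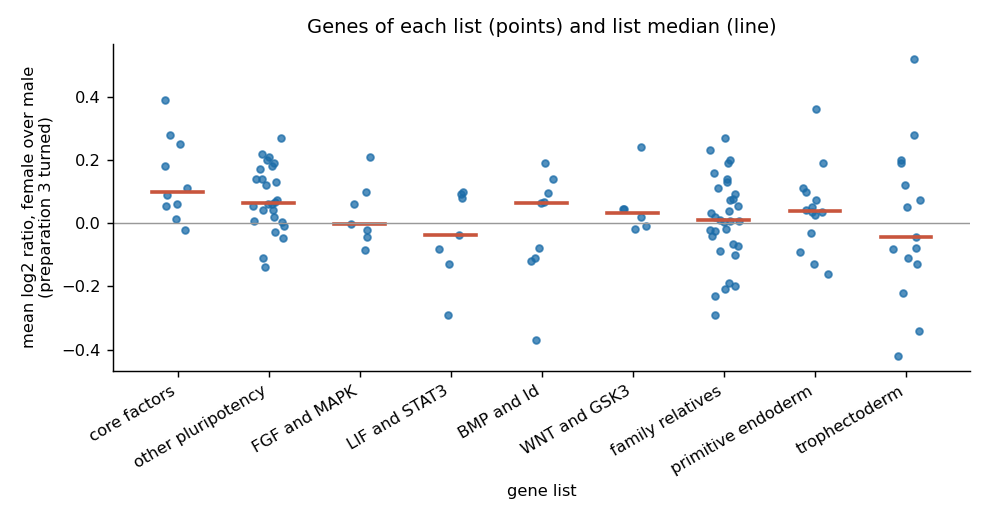
Turned mean log2 ratio, female over male, of every measured gene of 9 lists (points), with the list median (line). The 10 core factors have a median of 0.10 and reach 0.39 at Nanog, and the trophectoderm markers spread from -0.42 to 0.52 around a median of -0.045.

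Markers of the other blastocyst lineages are given beside these values, because whole embryos were pooled: fewer cells of a type and less RNA per cell cannot be told apart. Trophectoderm markers (15 of 20 measured) had medians of -0.10, -0.13 and -0.028 in the 3 preparations as labelled. Relative to Xist, the sign of the median in preparation 3 was opposite to that in the others, but single markers did not all follow it. Once preparation 3 was turned, 7 of 15 had a mean above 0. By preparation means, 3 of the 15 were then above 0 in all 3 preparations (16.8% of rows). In the same reading 4 were below 0 in all 3, as were 2976 of 18606 rows. The keratin gene Krt7 stood at -0.34 ± 0.045, the tight junction gene Cldn4 at -0.42 ± 0.28 and the galectin gene Lgals3 at 0.52 ± 0.13 (SD, n = 3), all turned. Lgals3 stood at 0.072 to 1.83 on arrays with female RNA in Cy5 and at -0.85 to -0.0042 on the others.

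Primitive endoderm markers (14 of 18 measured) had medians of 0.092, -0.032 and -0.058, with 10 of 14 above 0 turned. The laminin gene Lama1 stood at 0.19 ± 0.20, the endocytic adaptor gene Dab2 at -0.13 ± 0.064 and the endocytic receptor gene Lrp2 at -0.16 ± 0.083 (SD, n = 3), all turned. Of cells that could be carried along, cumulus and granulosa markers (5 of 9 measured) had a turned median of 0.025 with 3 above 0. Ptgs2 stood at 0.30 ± 0.11 and Foxl2 at 0.086 ± 0.041, both turned. Their single turned arrays ran from -0.53 to 1.14 and from -0.22 to 0.35. Oviduct markers (2 of 5 measured) had a turned median of -0.038 and blood cell markers (3 of 5 measured) one of -0.077. The part of any of these in the ratios of the 10 factors was not tested.

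**Figure D4:**
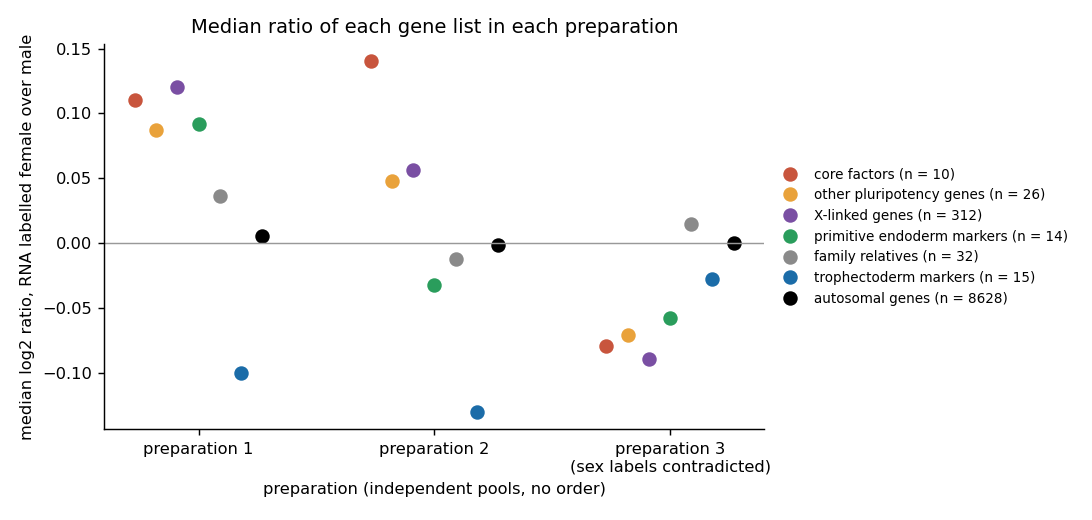
Median log2 ratio of the RNA labelled female over the RNA labelled male (vertical axis) for 7 gene lists in each preparation (horizontal axis). The medians of the core factors are 0.11, 0.14 and -0.079 and those of X-linked genes 0.12, 0.056 and -0.089. Medians of trophectoderm markers lie below 0 in all 3 as labelled, and those of autosomal genes lie near 0. Xist and Eif2s3y contradict the labels of preparation 3. Relative to Xist, the median of the trophectoderm markers in that preparation therefore has the opposite sign to that in the others, which does not hold for every marker.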

How the data were processed

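The authors deposited 1 log10 ratio per feature and array; the software named is Feature Extraction, version 7.5, for scans and Luminator for combining arrays, per the labels' series design text. Base, direction and centring are not stated: log10 was taken from limits at exactly -2 and 2, and Cy5 over Cy3 from Xist and Eif2s3y in preparations 1 and 2. Values were multiplied by 3.32 to give log2. Array medians lay between 0 and 0.00223 (log10). The SD over rows was 0.61 (log2) on the array of preparation 3 with female RNA in Cy5, and 1.01 to 1.14 on the others. The main fit did not scale the arrays. Signal intensities were not analysed here, so dim spots were not filtered, and the number of arrays limits the precision.

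Probes with 1 symbol in the platform annotation were named (11813; 559 had several, 9074 were unlisted), and 11782 were updated from GRCm38.p6. Probes of a gene were averaged, giving 18606 rows. The sign of arrays with female RNA in Cy3 was turned, and a preparation's 2 arrays, which hold the same extracts per the labels, were averaged. The deviations of these arrays from their orientation's mean correlated at -0.23, -0.10 and 0.06. Each SD is over preparation means and leaves out disagreement between the 2 arrays of a preparation. The mean over 3 preparations was tested against 0 with limma 3.58.1 (R 4.3.3), with Benjamini-Hochberg adjustment at 0.05. Only its estimates of the mean were checked, on simulated data with independent normal noise. How often changed rows were called in those data is not reported here.

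The members, lists and alternatives were chosen with earlier results of these data known. From each other list of over 3 measured genes, up to 3 are named, with the largest turned mean in size among those of 1 sign in all preparations. All 10 members, Xist, Eif2s3y and the 5 genes nearest to Nanog are named too.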

Additional observations from a re-analysis of the deposited data

Results flagged for a closer look

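Among the 10 factors, 2 had every array of one dye orientation on one side of 0 and every array of the other orientation on the opposite side, as labelled. The arrays with female RNA in Cy5 minus those with female RNA in Cy3 differed by -0.87 (log2) for Esrrb and by -0.56 for Tbx3. At the level of probes the same held for the second Esrrb probe (NM_011934), at -1.81, and for the Sall4 probe of accession C78563, at 0.27. Genes outside the 10 factors, such as Jam2, Smad5 and Apc, also had their orientations on opposite sides of 0. The share of all rows with this pattern is not given here, so nothing is read from the count. These differences between orientations were not tested as such. The limma test of the dye effect over all rows called none of the members.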

How the results depend on the processing

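The count of rows called for sex, 0 with labels kept, was 0 under the other settings except 3: 628 with only the arrays of female RNA in Cy3, 692 with preparation 3 turned and only female RNA in Cy5, neither of which cancels dye, and 39 with preparation 3 turned and 6 arrays with replicate block and dye term. The median of the 10 factors with 1 replicate left out ranged from -8.3e-05 (without replicate 2) to 0.12 (without replicate 3) as labelled, and from 0.089 to 0.12 with preparation 3 turned. In single orientations it was -0.032 (female RNA in Cy5, 5 of 10 above 0) and 0.09 (Cy3) as labelled, and 0.047 (Cy5) and 0.24 (Cy3) with preparation 3 turned. For Nanog the labelled mean of 0.13 became 0.012 without replicate 1, -0.0054 without replicate 2 and 0.39 without replicate 3. Among the 10 factors the replicate block changed no call other than Nanog's, with preparation 3 turned. The dye test, with 0 rows called, gave 446 with arrays centred and 789 with arrays scaled; the cause was not tested. Centring or scaling with preparation 3 turned, chosen after seeing the data, left the median at 0.10. Without signal intensities, how far a probe stood above background is unknown.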
